A study of Zea mays with 192 samples.

Results

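The 21-PHAS loci of maize are the genomic sources of the 21-nucleotide class of phased small interfering RNAs (phasiRNAs), and all rows of the expression table whose name starts with 21PHAS were taken, 44 of 41187 rows in all. The rest of the table holds gene models, GFP fusion constructs and 36 rows of the 24-nucleotide class. A row is named 21PHAS_ followed by a number, and after its first mention it is written by that number, as in NO588.

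PHAS transcripts are long, polyadenylated and non-coding, and are made by RNA polymerase II. In grass anthers those of the 21-nucleotide class are cut under the guidance of the microRNA miR2118, copied into double strands by the RNA-dependent RNA polymerase RDR6 with its partner SGS3 (leafbladeless1 in maize), and diced in steps by DICER-LIKE4. The class is known for its abundance in pre-meiotic anthers, whereas the 24-nucleotide class, triggered by miR2275, accumulates at meiosis in the tapetum, the nurse layer around the pollen mother cells. What was counted here is polyadenylated RNA assigned to these loci, not the small RNA.

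The cells were single leaf protoplasts (cells without their wall) of the inbred maize line B73. More than 10 etiolated seedlings, grown at 25 °C in constant darkness and collected 10 to 12 days after germination, went into each isolation. One group of 96 protoplasts had been transfected with pre-meiotic transcription factors (the pre-meiotic pool) and the other group of 96 with basic helix-loop-helix factors (the bHLH pool), a family that includes the tapetal regulators ms23 and ms32. Since no separate transfections are given, each pool is 1 sample, cells are not replicates, and no test between pools can be made. The labels do not list the constructs of a pool. No untransfected protoplasts were analysed here, so neither pool is a control for the other, and a level in leaf cells that carry no construct is not known. Intervals are at 95% and cover counting error, nothing else.

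Unique molecular identifiers (UMIs, each standing for 1 captured RNA) numbered 3029855 in the pre-meiotic pool, where cells held 953 to 88243 with a median of 26488. They numbered 3274116 in the bHLH pool, where cells held 4699 to 148894 with a median of 28577.5. Fewer than 2000 genes were detected in 22 cells of the pre-meiotic pool and in 2 of the bHLH pool. The C4 mesophyll marker ppdk1 (GRMZM2G306345), which encodes pyruvate orthophosphate dikinase, had a UMI in 73 cells of the pre-meiotic pool and 70 of the bHLH pool. The other mesophyll genes on the list were rare and found in more cells of the pre-meiotic pool: pep1 and GRMZM2G121878 each in 16 against 7, and mdh6 in 11 against 3. The bundle sheath marker me3 (NADP-malic enzyme) was found in 24 and 25 cells, in the same order of pools, and the Rubisco small subunit genes ssu1 and ssu2 had 1 and 3 UMIs in the pre-meiotic pool and none in the bHLH pool. The epidermal gene ocl1 was found in 37 cells of the pre-meiotic pool and 53 of the bHLH pool. The tapetal genes ms26 and ms8 had no UMI in the pre-meiotic pool, which allows up to 3.125% of cells with a UMI (3 of 96) and sets no limit on cells that express them, and 1 UMI each in the bHLH pool. As a measure of RNA carried between pools, the gene ms32 had 1 UMI in the pre-meiotic pool against 4834 in the bHLH pool, and nam1, a NAC factor, had 2798 against 0. Some construct rows were found in both pools, however, such as GFP_bHLH122 in 14 cells of the pre-meiotic pool and 77 of the bHLH pool, and GFP_EREB50 in 24 and 13.

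Transcripts of the 21-PHAS loci were present at a low level in most protoplasts of both pools. The 44 rows summed to 333 UMIs in the pre-meiotic pool and 321 in the bHLH pool. That is 109.9 UMIs per 1000000 UMIs of the pool (TPM, 98.4 to 122, exact Poisson) in the pre-meiotic pool and 98.0 TPM (87.6 to 109) in the bHLH pool, a ratio of 1.121 with an interval of 0.959 to 1.311. A 21-PHAS UMI was found in 69 of 96 cells (71.9%, Clopper-Pearson interval 61.8 to 80.6) of the pre-meiotic pool and in 73 of 96 cells (76.0%, 66.3 to 84.2) of the bHLH pool. Neither the summed level nor the share of cells differed between the pools by more than its counting error.

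In single cells the summed level, given as TPM of that cell, had a median of 83.1 TPM and a maximum of 1144 TPM in the pre-meiotic pool. In the bHLH pool the median was 79.8 TPM and the maximum 336 TPM. The median count was 2 UMIs per cell in both pools, so most of these levels rest on very few molecules. The highest value, in protoplast 18 of the pre-meiotic pool, came from 3 UMIs (1 of 21PHAS_NO115 and 2 of 21PHAS_NO556) in a cell of 2622 UMIs. The cells with the most molecules were protoplast 51 of the pre-meiotic pool, with 19 UMIs in 56173, and protoplast 48 of the bHLH pool, with 32 UMIs in 101437. In both of these deep cells 21PHAS_NO588 and 21PHAS_NO589 made up most of the count, with 8 UMIs each in the first and 12 each in the second.

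Whether a cell showed a 21-PHAS UMI went with how deeply it was sequenced. Cells with a UMI had a median depth of 34848 UMIs in the pre-meiotic pool, against 12936 for those without, and in the bHLH pool the medians were 34154 and 12082. When the 96 cells of a pool were ordered by depth and divided into 3 equal groups, 14, 26 and 29 of 32 cells had a 21-PHAS UMI in the pre-meiotic pool, from shallow to deep, and 14, 28 and 31 in the bHLH pool. The level in TPM in the same groups was 113, 110 and 109 in the pre-meiotic pool and 66.9, 96.1 and 105 in the bHLH pool. The level of the pre-meiotic pool was therefore about the same at every depth, while in the bHLH pool it was lowest in the shallowest cells, with overlapping intervals of 42.8 to 99.5 there and 90.9 to 120 in the deepest. Thinned to 5000 UMIs per cell, 39.6% of 86 cells of the pre-meiotic pool and 33.3% of 95 cells of the bHLH pool would show a UMI, 10 shallower cells of the first pool and 1 of the second being left out.

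**Figure D1:**
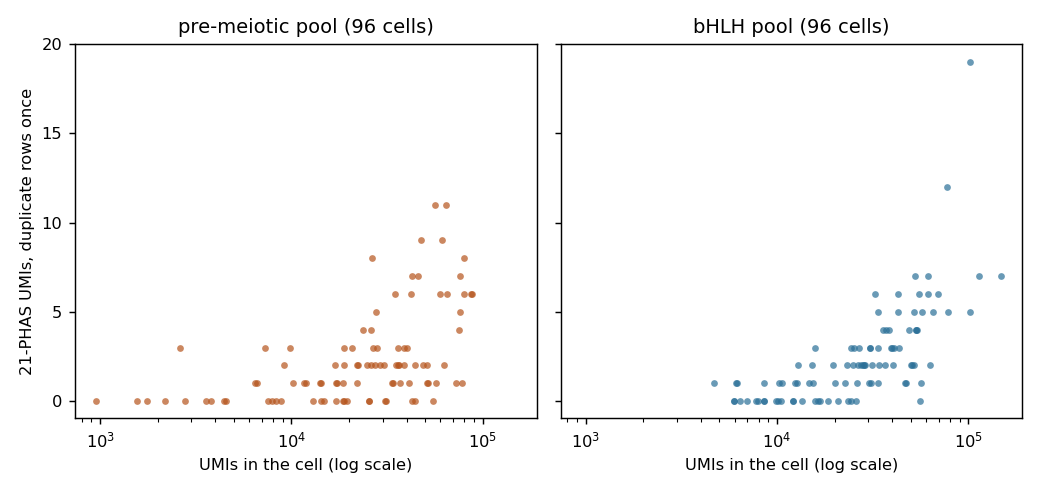
21-PHAS UMIs of each protoplast (y axis, duplicate rows counted once) against all UMIs of that protoplast (x axis, log scale), the pre-meiotic pool on the left and the bHLH pool on the right, 96 points each. Cells without a 21-PHAS UMI lie mostly on the shallow side, at a median of 12936 UMIs in the pre-meiotic pool and 12082 in the bHLH pool.

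If the UMIs of all the loci (duplicate rows once) had fallen on cells in proportion to depth alone, 73.3 cells of the pre-meiotic pool and 76.7 of the bHLH pool would hold at least 1, against 69 and 73 observed. The 27 empty cells of the pre-meiotic pool compare with 22.7 by depth, and the 23 of the bHLH pool with 19.3. The 22 cells of the pre-meiotic pool with fewer than 2000 genes held 15 UMIs, or 78.8 TPM, against 112 TPM in its other cells.

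The 44 rows are not 44 independent loci. Identical counts in every one of the 192 cells were found within 4 groups, which hold 10 rows in all. These were NO385 with NO464 (22 UMIs in 18 cells), NO132 with NO133, NO164 with NO317, and NO264 with NO265, NO456 and NO527, the last 3 groups at 1 UMI each. NO588 and NO589 had 161 and 160 UMIs and differed by a single UMI in 1 cell of the pre-meiotic pool. NO531 had 3 UMIs, all in cells where 21PHAS_NO530, with 4 UMIs, had one. Rows with 1 UMI match whenever that UMI falls in the same cell, whereas the matches of NO588 with NO589 and of NO385 with NO464 extended over 87 and 18 cells. Whether the counting assigned 1 molecule to several rows was not tested, since no positions of the loci were used here.

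Counting each group once, and NO588 and NO589 once, left 37 rows with 227 UMIs (74.9 TPM) in the pre-meiotic pool and 240 UMIs (73.3 TPM) in the bHLH pool. The ratio was then 1.022, with an interval of 0.849 to 1.231. Without NO588 and NO589 the remaining 42 rows gave 47.5 TPM in the pre-meiotic pool and 57.7 in the bHLH pool, a ratio of 0.823 (0.658 to 1.028). The side of 1 on which the summed ratio falls therefore depends on this 1 pair of rows.

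**Figure D2:**
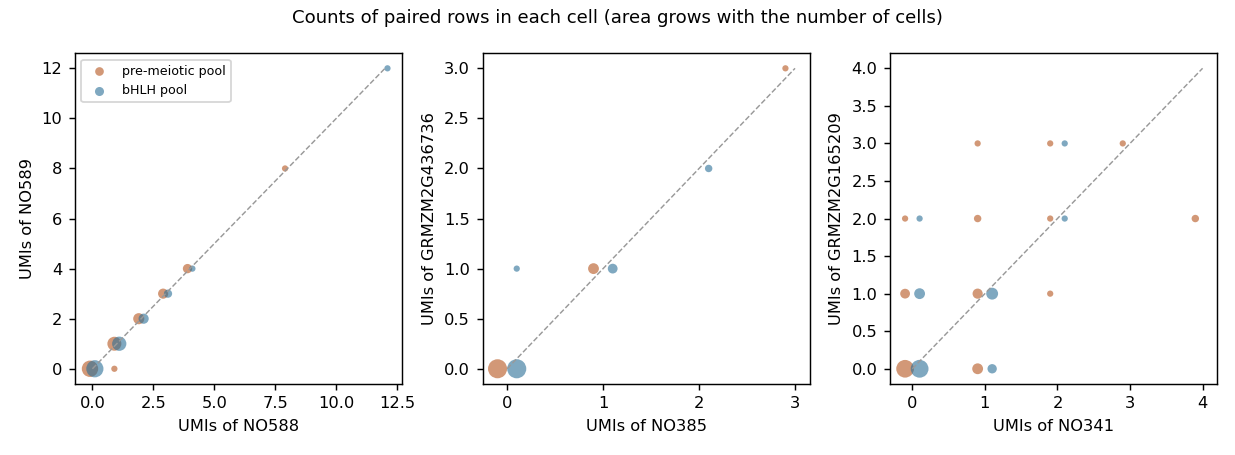
UMIs in each cell of 3 pairs of rows, with orange circles for the pre-meiotic pool, blue circles for the bHLH pool and an area that grows with the number of cells; the dashed line marks equal counts and circles of the pools are set slightly apart. NO588 and NO589 lie on the line but for 1 UMI, NO385 and the gene model GRMZM2G436736 lie on it but for 1 UMI, and NO341 and GRMZM2G165209 scatter around it.

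A few loci carried most of the transcripts. The 8 rows found in 10% or more of a pool's cells were called well detected, and they held 306 of 333 UMIs (91.9%) in the pre-meiotic pool and 273 of 321 (85.0%) in the bHLH pool. NO588 and NO589 together made up 56.8% of the UMIs in the pre-meiotic pool and 41.1% in the bHLH pool. With duplicate rows counted once, NO588 held 41.9% and 27.5%, and the 6 distinct well-detected loci 88.1% and 82.1%, in the same order of pools. NO588 was found in 49 of the 69 cells with any 21-PHAS UMI in the pre-meiotic pool and in 39 of 73 in the bHLH pool. It was the only locus detected in 12 and 4 of those cells, in the same order of pools.

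NO588 had 95 UMIs in 49 cells of the pre-meiotic pool and 66 UMIs in 39 cells of the bHLH pool. Its level was 31.4 TPM (25.4 to 38.3) in the pre-meiotic pool and 20.2 (15.6 to 25.6) in the bHLH pool, a ratio of 1.56 with an interval of 1.12 to 2.16. It was the highest row in both pools. NO589 gave almost the same numbers, with 94 and 66 UMIs and a ratio of 1.54, and adds no separate evidence. A single UMI was found in 26 of the 49 positive cells of the pre-meiotic pool and in 27 of the 39 of the bHLH pool, with a maximum of 8 and 12 UMIs in a cell.

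21PHAS_NO380 stood the other way round. It had 24 UMIs in 18 cells of the pre-meiotic pool and 60 UMIs in 34 cells of the bHLH pool, or 7.92 TPM (5.08 to 11.8) against 18.3 (14.0 to 23.6). Its ratio of 0.432 (0.257 to 0.705) was the only one of the 8 rows past 2-fold. The ratio was 0.449 without the cell with the most 21-PHAS UMIs in each pool and 0.460 in cells with at least 2000 genes. On mean TPM with a pseudocount of 10 it was 0.648 and with 100 it was 0.921, since a pseudocount shrinks the ratio of so low a row. Of the 15102 rows of the table with at least 20 UMIs, 13.9% were past 2-fold on this side and 13.1% on the other, so 1 lower and 0 higher rows of 8 is near the background.

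21PHAS_NO341 had 36 UMIs in 25 cells of the pre-meiotic pool and 22 UMIs in 20 cells of the bHLH pool, a ratio of 1.77 (1.01 to 3.16). 21PHAS_NO407 had 21 UMIs in 19 cells of the pre-meiotic pool and 31 in 24 cells of the bHLH pool, a ratio of 0.732 (0.400 to 1.32). NO385 and its twin NO464 had 12 UMIs in 10 cells of the pre-meiotic pool and 10 in 8 cells of the bHLH pool, a ratio of 1.30 (0.513 to 3.35). NO115 had 12 UMIs in 10 cells of the pre-meiotic pool and 8 in 7 cells of the bHLH pool, a ratio of 1.62 (0.609 to 4.57). The last 3 of these ratios cannot be told from 1 at this depth. In the pre-meiotic pool the order of levels was NO588, NO341, NO380, NO407 and then NO385 and NO115 together. In the bHLH pool NO380 moved next to NO588, with overlapping intervals, followed by NO407, NO341, NO385 and NO115. Neighbours in these orders had overlapping intervals except NO588 over NO341 in the pre-meiotic pool and NO380 over NO407 in the bHLH pool. NO385, NO464 and NO115 met the 10% limit in the pre-meiotic pool alone, so their side of 1 is in part fixed by that limit.

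**Figure D3:**
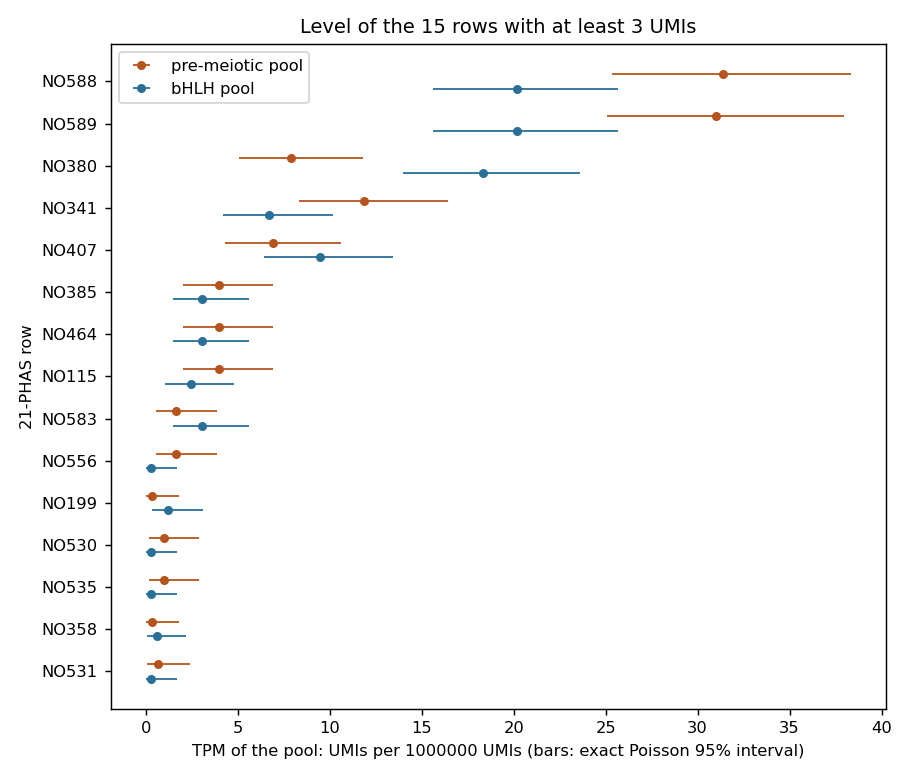
Level of the 15 rows with at least 3 UMIs over both pools, in TPM of the pool (x axis), with the pre-meiotic pool in orange above the bHLH pool in blue and bars for exact Poisson 95% intervals. The bars of NO380, at 7.92 TPM in the pre-meiotic pool and 18.3 TPM in the bHLH pool, do not overlap, and those of the other 14 rows do.

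The other 36 rows were seen as scattered single molecules. They held 27 UMIs in 18 cells of the pre-meiotic pool and 48 UMIs in 34 cells of the bHLH pool, a ratio of 0.608 with an interval of 0.365 to 0.994. With identical rows counted once they were 31 rows with 27 and 43 UMIs, and the ratio of 0.679 had an interval of 0.403 to 1.12, which includes 1. A UMI was found for 14 of these rows in the pre-meiotic pool and for 32 in the bHLH pool. With the 8 well-detected rows this makes 22 and 40 of 44 rows, or 20 of 37 and 33 of 37 when duplicate rows are counted once. Of the 44 rows, 18 had a UMI in both pools, 4 only in the pre-meiotic pool and 22 only in the bHLH pool. The share of all rows of the table found in 1 pool alone was not computed, so these counts have no background and show no trait of the loci. The 22 also include NO132 with NO133, NO164 with NO317, and NO264 with NO265, NO456 and NO527, which are groups of identical rows. Each of the 22 had at most 2 UMIs in the bHLH pool, under the floor of 3 UMIs, so that their absence from the pre-meiotic pool was not detectable as a difference at this depth. With at least 3 UMIs asked for, 12 rows passed in the pre-meiotic pool and 10 in the bHLH pool.

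Among these rarer rows 7 had 3 UMIs or more over both pools. 21PHAS_NO583 was the most frequent, with 5 UMIs in the pre-meiotic pool and 10 in the bHLH pool. NO556 had 5 and 1 UMIs, 21PHAS_NO199 had 1 and 4, NO530 and 21PHAS_NO535 each had 3 and 1, NO531 had 2 and 1, and 21PHAS_NO358 had 1 and 2, always in the same order of pools. A further 6 rows had 2 UMIs over both pools, and 23 had 1. The files hold no row that is 0 in every cell, so a locus without any UMI would not be listed.

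A protoplast usually showed few of the loci at once. Over the 44 rows the number of rows with a UMI had a median of 2 per cell in both pools and a mean of 2.24 in the pre-meiotic pool and 2.34 in the bHLH pool. With duplicate rows counted once the median was 1 in the pre-meiotic pool and 2 in the bHLH pool, and the mean was 1.64 and 1.80. On that count 45 cells of the pre-meiotic pool and 54 of the bHLH pool held at least 2 loci, and the most in a single cell was 7 and 6. The number of loci rose with depth, with a Spearman correlation over the 96 cells of 0.55 in the pre-meiotic pool and 0.75 in the bHLH pool.

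**Figure D4:**
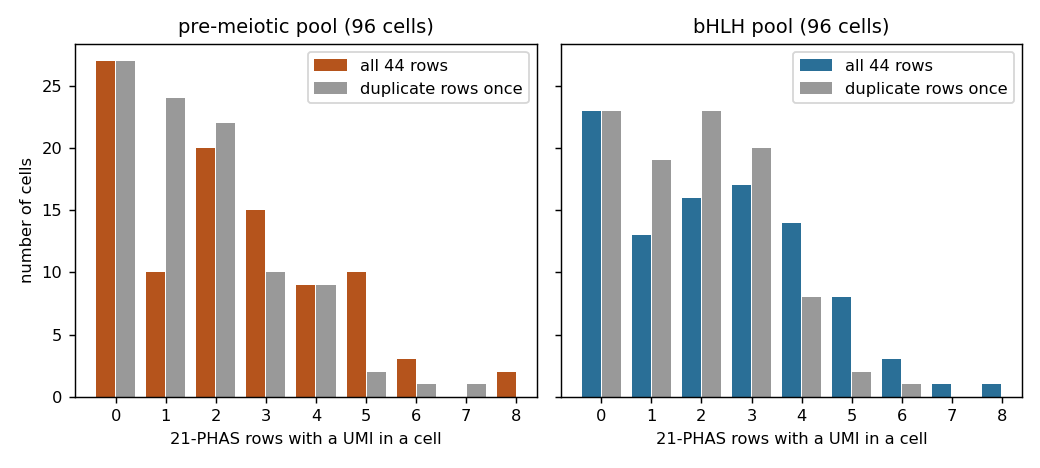
Number of cells (y axis) by the number of 21-PHAS rows with a UMI (x axis) in the pre-meiotic pool (left, orange) and the bHLH pool (right, blue), with grey bars for duplicate rows counted once. The 27 cells of the pre-meiotic pool and the 23 of the bHLH pool without a row form the tallest coloured bars. Counting duplicates once raises the cells with 1 locus to 24, against 10 over all rows, in the pre-meiotic pool and to 19, against 13, in the bHLH pool.

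Pairs of the 6 distinct well-detected loci (NO588, NO380, NO341, NO407, NO385 and NO115) were found in the same cell somewhat more often than the product of their shares gives. Summed over the 15 pairs there were 93 joint detections against 69.0 in the pre-meiotic pool (ratio 1.35) and 95 against 71.1 in the bHLH pool (ratio 1.34). Deep cells detect more of every locus, however. When each locus was spread over cells in proportion to their depth, 105.0 joint detections were given for the pre-meiotic pool and 107.4 for the bHLH pool, above the observed 93 and 95. That reckoning also gave more cells than were observed for most single loci. With the product of shares as the measure, the ratio was 1.15 in the pre-meiotic pool and 1.08 in the bHLH pool in cells thinned to 5000 UMIs, and 1.12 and 1.31 in cells with at least 2000 genes. Whether the loci occur together beyond depth therefore depends on how depth is treated.

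Single pairs varied around this. Of the 15 pairs, 11 in the pre-meiotic pool and 9 in the bHLH pool were above the number from shares. Only 4 and 3 were above the number by depth. NO380 and NO407, for example, were both found in 8 cells of the bHLH pool, against 8.5 from their shares and 13.3 by depth. The pairs named next are among those highest above the number from shares. NO588 and NO341 were both found in 21 cells of the pre-meiotic pool, against 12.8 from their shares and 19.3 by depth, and in 13 cells of the bHLH pool, against 8.13 and 10.7. NO380 and NO341 were both found in 7 cells of the pre-meiotic pool, against 4.69 from their shares and 8.01 by depth, and in 14 cells of the bHLH pool, against 7.08 and 10.1. Correlations of TPM between loci over the 96 cells were low, with a median over pairs of 0.071 in the pre-meiotic pool and 0.090 in the bHLH pool. Their highest values were 0.35 (NO588 with NO341) in the pre-meiotic pool and 0.33 (NO380 with NO341) in the bHLH pool.

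The 24-PHAS rows, the class of the meiotic tapetum, were in sum higher than the 21-PHAS rows in both pools. They had 883 UMIs in the pre-meiotic pool and 983 in the bHLH pool, which is 2.65 and 3.06 times the 21-PHAS count over all 44 rows. That count was 227 and 240 with duplicate rows once. A single row, 24PHAS_NO166, held 501 of the 883 UMIs and 606 of the 983, so the sum says little of the other 24-PHAS rows. Both classes were found in 66 cells of the pre-meiotic pool, against 64.0 from the product of shares, and in 71 cells of the bHLH pool, against 71.5. Over cells the summed TPM of both classes had a Spearman correlation of 0.36 in the pre-meiotic pool and 0.17 in the bHLH pool. The sample descriptions name the cells of the first pool for 21mers and those of the second for 24mers, and neither class differed between the pools beyond counting error, with a ratio of 1.121 for the 21-nucleotide class and 0.971 (0.885 to 1.064) for the 24-nucleotide class.

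Genes of the small RNA pathway were mostly found in few cells. Of 10 gene IDs named for it in the reference, 9 had a row, and 1 in the pre-meiotic pool and 2 in the bHLH pool were found in 25% or more of the cells. Only dcl1 passed this limit in both pools. Over the whole table, 6321 of 41187 rows were gene models that did so. Passing in both pools therefore does not set the pathway apart from other genes. The share of all rows that passed in each pool alone is not given here. DICER-LIKE4, which dices the 21-nucleotide class, is named for 3 rows. The highest of them, GRMZM2G160473, had 35 UMIs in 22 cells of the pre-meiotic pool and 31 in 23 cells of the bHLH pool. The RNA-dependent RNA polymerase gene rdr6 had 9 UMIs in the pre-meiotic pool and 6 in the bHLH pool, and lbl1, the SGS3 homologue, had 1 in each. The gene dcl1, whose product processes microRNA precursors, had 36 UMIs in 28 cells of the pre-meiotic pool and 164 in 69 cells of the bHLH pool, a level of 11.9 TPM against 50.1 TPM. For argonaute1 there were 15 UMIs in the pre-meiotic pool and 38 in the bHLH pool. No row was named for miR2118 or miR2275, and Spearman correlations of the machinery genes with the summed 21-PHAS level ran between -0.01 and 0.28 in the pre-meiotic pool and between -0.05 and 0.14 in the bHLH pool.

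Some gene models carried nearly the counts of a 21-PHAS row. Shared UMIs are here the smaller of both counts in each cell, summed over cells. They need not be the same molecules. GRMZM2G436736, an unnamed gene model with 23 UMIs, shared all 22 UMIs of NO385 and NO464 cell by cell and had 1 more in 1 cell of the bHLH pool. GRMZM2G174888, with 12 UMIs, shared 11 with NO385. GRMZM2G165209, with 64 UMIs, shared 39 of the 58 UMIs of NO341, and its TPM correlated with that of NO341 at 0.59 in the pre-meiotic pool and 0.54 in the bHLH pool. By the same measure GRMZM2G082976 (derlin2), with 259 UMIs, shared 123 of the 161 UMIs of NO588, with correlations of 0.40 and 0.10. An abundant row shares more by this measure, and the number expected from depth was not computed. For the other well-detected loci the closest gene model shared a smaller part of the UMIs found in either row: 42.0% for NO588 (GRMZM2G140500), 37.2% for NO380 (GRMZM2G112764, MYBR26), 32.9% for NO407 (AC233870.1_FG006) and 25.0% for NO115 (GRMZM2G038158), against 47.0% for NO341 and GRMZM2G165209. These gene models were chosen after their values were seen, and an overlap of gene model and locus on the genome was not tested.

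Among 6321 gene models found in 25% or more of each pool's cells, 115 (1.82%) followed the summed 21-PHAS level with a Spearman correlation of at least 0.3 in both pools. The 5 highest by the mean over pools were GRMZM2G054187 (0.59 in the pre-meiotic pool and 0.40 in the bHLH pool), GRMZM2G103617 (0.58 and 0.37), GRMZM2G015610 (PP2C18, a protein phosphatase by its name; 0.56 and 0.36), GRMZM2G007729 (hsp22, a small heat shock protein by its name; 0.53 and 0.38) and GRMZM2G162426 (0.56 and 0.32). All the cells of a pool share its transfection and differ in depth, and the typical gene model was positive too, with a median of 0.25 in the pre-meiotic pool and 0.12 in the bHLH pool. Given the UMIs and the genes detected in each cell, the medians dropped to 0.019 and 0.020, and GRMZM2G054187 alone kept 0.3 in both pools (0.31 and 0.33). With cells thinned to 5000 UMIs 1 gene model reached 0.3 in both pools, and none of the 5 was among the first 5 there.

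**Figure D5:**
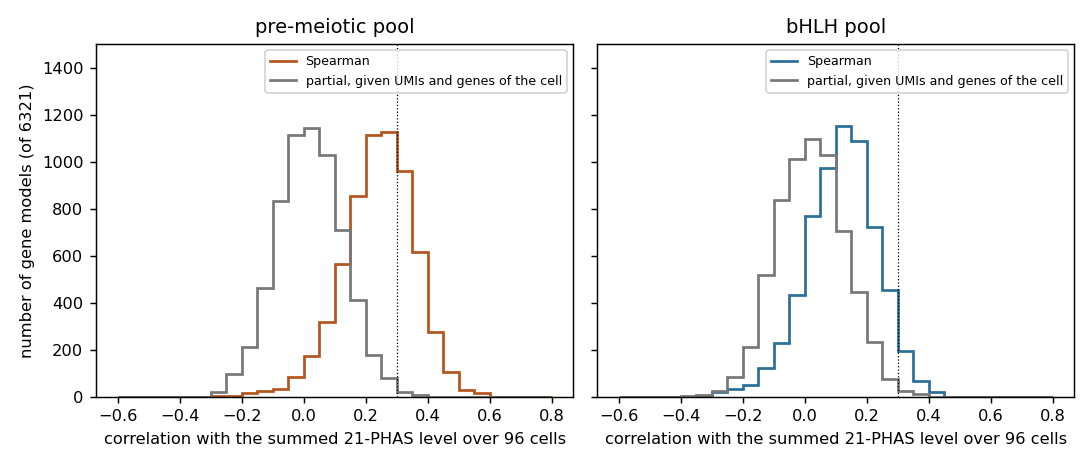
Number of gene models (y axis) by their correlation with the summed 21-PHAS level over 96 cells (x axis), in the pre-meiotic pool (left, orange) and the bHLH pool (right, blue), with grey lines for the correlation given the UMIs and genes of each cell and a dotted line at 0.3. The coloured distributions are centred at 0.25 in the pre-meiotic pool and 0.12 in the bHLH pool, and the grey ones near 0.

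Single loci had fewer followers among the same gene models, which were limited by their share of cells in each pool. At 0.3 in both pools 57 gene models (0.902%) followed NO588, 86 (1.36%) NO380, 15 (0.237%) NO341, 8 (0.127%) NO407, 1 (0.0158%) NO115 and 0 NO385. NO589, the twin of NO588, had 64 (1.01%). Gene models found in fewer cells were left out of these counts and rankings. Some of them followed a locus more closely, by the mean over pools, than those named here. GRMZM2G436736 had a correlation of 1 in the pre-meiotic pool and 0.93 in the bHLH pool with NO385. GRMZM2G165209 had 0.59 and 0.54 with NO341, and AC233870.1_FG006 had 0.44 and 0.37 with NO407. The gene models left out were not ranked by correlation. The first 5 for NO588 were GRMZM2G385999 (0.56 in the pre-meiotic pool and 0.28 in the bHLH pool), GRMZM2G132653, GRMZM2G152827, GRMZM2G180578 and GRMZM2G162396, of which only GRMZM2G152827 (0.45 and 0.36) and GRMZM2G180578 (0.46 and 0.32) passed 0.3 in both. The first 5 for NO380 all passed it, led by GRMZM2G011742 (0.41 and 0.47) and followed by GRMZM2G049390, GRMZM2G006416, GRMZM2G125507 and GRMZM2G162396. GRMZM2G162396 thus stood among the first 5 of both loci.

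For NO341 the first was GRMZM2G114107 (0.35 in the pre-meiotic pool and 0.49 in the bHLH pool), followed by GRMZM2G336824, whose 0.67 in the pre-meiotic pool stood against 0.09 in the bHLH pool, GRMZM2G166355, GRMZM2G054811 and GRMZM2G424241 (FHA17). For NO407 the first 5 were GRMZM2G068566 (0.55 and 0.20), GRMZM2G100881, GRMZM2G102795, GRMZM2G133620 and GRMZM2G127850, and only GRMZM2G100881 (0.40 and 0.34) passed 0.3 in both pools. For NO385 GRMZM5G803318 led with 0.40 and 0.21, followed by GRMZM2G133203, GRMZM2G145029, GRMZM2G150172 and GRMZM2G395237, all weak, that is, under 0.3 in at least 1 pool. For NO115 GRMZM2G025531 led with 0.33 in both pools, followed by GRMZM2G099337, GRMZM2G119761, GRMZM2G110361 and GRMZM5G866918, these last 4 weak. Given the UMIs and genes of each cell, no gene model within the limit on cells kept 0.3 in both pools with NO588, NO380, NO341 or NO407. GRMZM2G025531 kept 0.31 and 0.30 with NO115. Ranking gene models in the pre-meiotic pool told little of their rank in the bHLH pool, with a Spearman correlation over the 6321 gene models of 0.16 for the summed level and 0.009 to 0.12 for single loci.

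The constructs themselves were compared with the summed 21-PHAS level within each pool, over constructs found in at least 10% of its cells. In the pre-meiotic pool all 23 such constructs correlated positively, between 0.006 and 0.50 with a median of 0.17, and given depth and genes per cell the median was -0.02. Most of the 6321 gene models were positive too, with a median of 0.25 and a lower quartile of 0.17 in that pool. In the bHLH pool the gene models had 0.12 and 0.05. The number of positive constructs therefore does not set them apart. In the bHLH pool 8 of 10 constructs were positive, between -0.03 and 0.15 with a median of 0.09. Of these, GFP_EREB50 and GFP_EREB69 had identical counts in every cell of that pool, which leaves 7 of 9 distinct rows. The highest was the construct GFP_bHLH97 in the pre-meiotic pool, singled out after the values were seen: its 65 positive cells held a 21-PHAS level of 128 TPM (114 to 144), against 41.8 (27.5 to 60.7) in the 31 cells without it, and 128 against 44.8 among cells with at least 2000 genes. Positive cells were also deeper, at a median of 33498 UMIs against 18513, and had more genes, 5615 against 2183, and the correlation of 0.50 was 0.23 given both measures, whose part in the difference was not tested.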

How the data were processed

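Polyadenylated RNA of single protoplasts was profiled by CEL-seq2, which counts 3' ends with UMIs, per the labels' protocols. Per the submitters' processing notes, HISAT2, SAMtools and UMI-tools were run on B73 RefGen_v3. Which versions, annotation and cell filters served is not stated in the sources used here. The authors' deposited values are named TPM but are a scaled signal: each is a count of UMIs scaled to 1000000 by a cell total, the totals being recycled down the rows, so that column sums range from 65502 to 10967874. Multiplying back gave whole numbers for 1001042 of 1001042 nonzero values (tolerance 0.001 UMI), and UMIs per 1000000 UMIs were recomputed per cell (TPM in the text). The analysis had been designed for TPM, and this replaced it. Columns of other samples numbered 0.

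Cells needed at least 500 genes, which kept 96 per pool. Protoplast numbers only count cells. Doublets were not called, each label describing a single protoplast. Poisson, Clopper-Pearson and binomial-based ratio intervals (95%) cover counting error only. Poisson and ratio intervals over all 44 rows are too narrow, since duplicate rows enter as separate counts. The floor is 3 UMIs over a pool, 0.99 TPM in the pre-meiotic pool and 0.92 TPM in the bHLH pool. Expected cells were computed by spreading a row's UMIs over cells in proportion to depth. The code was tested on simulated counts. Members, lists and settings were chosen with earlier results of these data known. By rule, well-detected loci, rarer loci with at least 3 UMIs and the 5 gene models with the highest mean correlation per locus are named. Those 5 come from the gene models that passed the limit on cells in both pools. Gene names come from a table of Zm-B73-REFERENCE-NAM-5.0, another build, so no coordinates or sequences are given. Alternatives were other filters, pseudocounts of 10 and 100 TPM, thinning to 5000 and 2000 UMIs, and leaving out rows or cells. Python 3.11.15, numpy 2.4.6, pandas 2.3.3, scipy 1.17.1 and matplotlib 3.10.9 were used.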

Additional observations from a re-analysis of the deposited data

How the results depend on the processing

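With 1 sample per pool and 333 and 321 UMIs over the 44 rows, intervals of the rarer loci span several fold, and the spread between transfections cannot be estimated. No paired analysis was possible because the results come from no test and protoplast numbers only count cells. As the mean TPM over cells, the summed level was 87.1 in the bHLH pool and the ratio 1.35; the deposited values as they stand gave 252.7 and 222.2. Without NO588 the levels were 78.6 and 77.9 TPM in the pre-meiotic and bHLH pools, with duplicate rows once 74.9 and 73.3, and without NO588 and NO589 47.5 and 57.7 (ratio 0.823). The share of cells with a UMI was 39.6% and 33.3% thinned to 5000 UMIs and 19.5% and 15.7% thinned to 2000. It was 86.5% in the pre-meiotic pool and 76.6% in the bHLH pool in cells with at least 2000 genes. The share with 2 or more UMIs was 62.5% in both pools, and 51.0% and 56.25% with duplicate rows once. At least 3 UMIs left 12 and 10 rows. A pseudocount of 10 or 100 TPM left 0 rows past 2-fold instead of 1. Joint detections over those given by depth were 0.886 and 0.885. Gene models at 0.3 in both pools numbered 207 and 57 with Pearson correlations of log2 values (pseudocounts 10 and 100), 1 after thinning and 1 given depth and genes, instead of 115. The causes of these shifts were not tested. Of the settings for these results 27 moved the value and 31 did not. The summed ratio fell on the other side of 1 only without NO588 and NO589, with an interval that includes 1. Added after seeing the data were counting NO588 and NO589 once, leaving both out, counting identical rarer rows once, leaving out the top cell for single loci, and joint detections given by depth.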
